A study of Mus musculus with 6 samples.

Results

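Neuromedin U (*Nmu*) is described here together with the related peptide gene neuromedin S (*Nms*) and the receptor genes *Nmur1* and *Nmur2*, in mouse esophageal epithelium with and without an intact *Klf4* gene. The 4 genes were taken by name, each with the only probe set that named it alone (10530772, 10345656, 10356335 and 10386086 in that order), out of 19938 genes with such a probe set. *Nmu* was picked for its difference between the genotypes in these same arrays, so its values are a description and no test is given for any of the 4. RNA came from 6 mice of 3 months on a mixed genetic background, 1 array per animal. All 6 carried *Klf4* with loxP sites on both copies. The 3 mutants also carried ED-L2-Cre, in which an Epstein-Barr virus promoter drives the recombinase in stratified squamous epithelia, the esophageal lining included, and the 3 controls were littermates of the same sex without Cre. Animal 1 of each genotype was male, and animals 2 and 3 were female.

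Neuromedin U is a secreted peptide cut from a longer precursor and amidated at its C-terminal end, the part that the receptors recognise. It is known from the gut, where enteric neurons make it, from the brain and from epithelia. Neuromedin S is a paralogous peptide with the same C-terminal end, best known from the suprachiasmatic nucleus of the brain. Both bind NMUR1 and NMUR2, G protein-coupled receptors that act mainly through Gq and phospholipase C. NMUR1 is found mostly outside the brain, including on group 2 innate lymphoid cells, which answer neuromedin U with type 2 cytokines, and NMUR2 mostly in the nervous system. KLF4 is a zinc-finger transcription factor of differentiating epithelium that binds CACCC-type and GC-rich DNA.

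The sequence before the start of the *Nmu* gene is shown because the deleted factor binds words of this kind, and that before *Nms* because it is the closest relative and read nearly the same in both genotypes. Each run is the 250 bases before the annotated start, 5′ to 3′ in the direction of transcription, from RefSeq on GRCm38.p6; all 4 genes had an entry. The capitals mark CACCC (or GGGTG on the other strand) and GGGCGG (or CCGCCC).
*Nmu*, chr5:76363778-76364027, minus strand: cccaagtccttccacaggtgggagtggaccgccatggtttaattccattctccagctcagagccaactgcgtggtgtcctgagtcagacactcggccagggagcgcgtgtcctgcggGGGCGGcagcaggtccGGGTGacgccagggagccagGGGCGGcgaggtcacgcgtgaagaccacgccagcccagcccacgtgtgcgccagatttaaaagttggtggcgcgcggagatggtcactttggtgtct
*Nms*, chr1:38938899-38939148, plus strand: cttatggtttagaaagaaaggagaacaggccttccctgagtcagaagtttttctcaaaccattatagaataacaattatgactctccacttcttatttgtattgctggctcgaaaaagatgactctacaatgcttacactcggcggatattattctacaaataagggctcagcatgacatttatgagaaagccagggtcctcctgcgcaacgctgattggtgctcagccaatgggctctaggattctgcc
The *Nmu* window held 1 CACCC word, beginning 117 bases before the start, and 2 GGGCGG words, beginning 133 and 97 bases before it, with no overlap between them. It also held the TATA-like word TTTAAA, beginning 42 bases before the start. The *Nms* window held none of the 3 words. Its GC content was 42.8%, against 64% for *Nmu*. Of the receptors, *Nmur2* had 2 CACCC words and 1 GGGCGG word, and each of the 2 annotated *Nmur1* starts had 1 CACCC word. These words are common: of 32851 windows of this length, 52% held CACCC at least once, 16.7% held GGGCGG at least 2 times and 12.1% held TTTAAA, both strands searched. The words were chosen after the sequence had been read, binding was not measured, and a match is no evidence of a site.

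The arrays behind the values resembled each other, with correlations across genes between 0.974 and 0.992. In the fit across all genes (limma, mutant against control, Benjamini-Hochberg adjusted p under 0.05), 207 genes passed, which is 1.04% of those tested. Leaving out an array lowered that count to 193 (control 1), 106 (control 2), 44 (control 3), 93 (mutant 1), 93 (mutant 2) or 102 (mutant 3). The targeted gene gave no lower signal in the mutants: *Klf4* read 9.75, 10.15 and 10.06 in the libraries labelled control and 10.28, 10.50 and 10.28 in those labelled mutant. Neither the floxed segment nor the probe positions are stated in the labels, and probes outside the segment check nothing. All directions therefore rest on the labels. Epithelial keratin genes were bright, with control means of 13.68 for *Krt4*, 13.78 for *Krt13* and 12.53 for *Krt5*, but RNA of tissue beneath the epithelium was present as well. The skeletal muscle actin gene *Acta1* read 8.43, 13.07 and 12.35 in controls 1, 2 and 3 and 11.83, 11.61 and 8.60 in the mutants, so control 1 and mutant 3 stood apart with lower muscle signal.

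*Nmu* was bright in every control and dimmer in every mutant. It read 10.30, 10.98 and 10.52 on the log2 scale in controls 1, 2 and 3. It read 6.72, 8.42 and 6.94 in mutants 1, 2 and 3. The groups did not overlap, and the lowest control lay 1.88 above the highest mutant. Groups without overlap were found for 18.1% of all genes in either direction and for 8% with the mutants lower, so the separation alone does not set *Nmu* apart. The means were 10.60 ± 0.35 and 7.36 ± 0.92 (SD, n = 3 each). Their difference was -3.23 ± 0.42 (SE), or 9.41-fold lower in the mutants. Every SE given here is limma's moderated SE, which draws on the variance of all genes and not on the printed SDs alone. The decrease was the largest among the 19938 genes, which is what the gene was chosen for. In RNA from a whole preparation, fewer cells of a type and less RNA per cell cannot be told apart. With one array left out at a time, the difference ranged from -3.76, without mutant 2, to -2.92, without mutant 1.

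**Figure D1:**
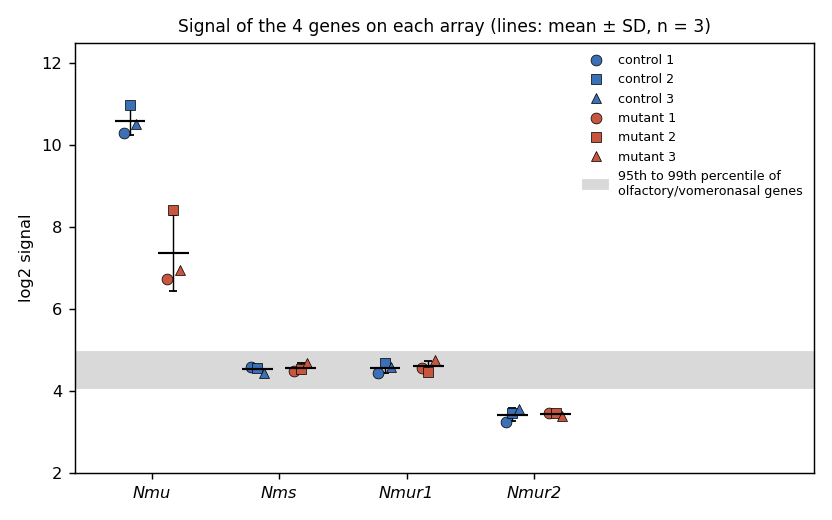
Log2 signal of *Nmu*, *Nms*, *Nmur1* and *Nmur2* on each of the 6 arrays, with the mean ± SD of each genotype (n = 3); symbols mark the animal number. The grey band spans 4.06 to 4.96, the 95th to 99th percentile of mean signal among 1190 olfactory and vomeronasal receptor genes; *Nmu* lies above it on all arrays, *Nms* and *Nmur1* inside it and *Nmur2* below it.

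The mutants did not lose *Nmu* signal equally. Mutant 2 lay 1.59 above the mean of mutants 1 and 3, and the 3 mutants spanned 1.69, against 0.68 for the controls. An SD among the mutants at least as large as that of *Nmu* was found for 134 genes, or 0.672% of all tested. An SD among the controls at least as large as that of *Nmu* was found for 6.55%. Mutant 2 was also the highest of the 3 mutants for 68 of the 134 genes called lower (50.7%), against 30.2% of all genes, a description of genes chosen on these arrays. By sex, the *Nmu* difference was -3.57 in the males (1 animal of each genotype) and -3.07 in the females (2 of each). The male mutant held the lowest value, 6.72, and female mutant 3 came next at 6.94, while the other female mutant was the highest at 8.42.

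The paralogous peptide gene gave a dim and even signal. *Nms* read 4.58, 4.55 and 4.44 in controls 1, 2 and 3 and 4.48, 4.53 and 4.69 in the mutants. The groups overlapped, with means of 4.53 ± 0.073 and 4.57 ± 0.11 (SD, n = 3 each) and a difference of 0.041 ± 0.10 (SE). All 6 values lay within 0.25 of each other.

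The receptor genes gave dim signals with differences near 0. *Nmur1* read 4.43, 4.68 and 4.59 in controls 1, 2 and 3 and 4.57, 4.47 and 4.75 in the mutants, with overlapping groups and a difference of 0.032 ± 0.11 (SE). *Nmur2* read 3.25, 3.45 and 3.55 in the controls and 3.46, 3.45 and 3.39 in the mutants, again overlapping, with a difference of 0.017 ± 0.11 (SE). For these 3 dim genes the range over all 6 arrays was 0.25 to 0.31, while that of *Nmu* was 4.25. Signals this close to the background are compressed, so a small difference does not show that the RNA was unchanged.

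Whether a dim signal stands for RNA was judged against genes active mainly in the sensory tissue of the nose and genes absent from the animal, because the deposited table gives no detection calls. The 1190 olfactory and vomeronasal receptor genes on the array had a median of 2.82 and a 95th percentile of 4.06 over the 6 arrays. Y-linked genes on the 4 female arrays (*Uty*, *Kdm5d* and *Eif2s3y*) read between 2.51 and 3.61. *Nmu* stood above these limits on all arrays; even its mutant mean of 7.36 exceeded the 95th percentile by 3.30. *Nms* and *Nmur1* lay just above the 95th percentile on all 6 arrays, at the 98.1 to 98.3 percentile of the receptor genes by group mean. They lay below the 99th percentile of 4.96, so their detection depends on where the limit is set. *Nmur2* was not above the 95th percentile on any array and sat at the 84.5 and 84.9 percentiles in controls and mutants. Probes differ in background and efficiency, so these limits describe the array and rank no gene against another.

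Of the genes that turn peptide precursors into active peptides, 13 of 15 listed were measured and 11 of those exceeded the 95th percentile of the nasal receptor genes. None passed the test in either direction (median 0.086, against 0.022 for all genes). *Furin*, encoding a convertase of the secretory pathway, went from 8.27 ± 0.083 to 8.51 ± 0.20 (SD, n = 3 each), a difference of 0.24 ± 0.12 (SE). *Pcsk1*, encoding the prohormone convertase of regulated secretion, read 3.69 ± 0.041 and 3.81 ± 0.22, under the 95th percentile of the nasal receptor genes in both groups. *Cpe*, whose product trims basic residues after cleavage, read 9.74, 9.93 and 9.73 in the controls and 10.49, 10.35 and 10.13 in the mutants. *Pam*, encoding the enzyme that amidates the C-terminal end, read 7.89, 7.99 and 8.22 in the controls and 8.88, 8.60 and 8.52 in the mutants. The genotypes did not overlap for either gene, but *Cpe* (0.52 ± 0.12, SE) and *Pam* (0.63 ± 0.14) did not pass (limma adjusted p = 0.119 and 0.0932). The membrane carboxypeptidase gene *Cpm* differed the other way by -1.17 ± 0.22 and also missed the threshold (limma adjusted p = 0.0655). It read 4.88 ± 0.46 in the controls and 3.70 ± 0.14 in the mutants (SD, n = 3 each). The mutant mean lay under the 95th percentile of the nasal receptor genes.

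One measured gene of regulated secretion rose. *Cadps2*, whose product primes dense-core vesicles for release, read 4.51, 4.62 and 4.65 in the controls and 6.12, 6.13 and 5.93 in the mutants, with separate groups. The controls lay between the 95th and 99th percentiles of the nasal receptor genes, where detection depends on the limit, and the mutants above both. The difference was 1.47 ± 0.10 (SE; limma adjusted p = 0.00161). It was the 1 gene of 8 measured on its list to pass, where 0.366% of all genes passed as higher and 0.672% as lower, and it kept its call under all 15 alternatives tried, those that left out an array included. The granin genes *Chga*, *Chgb*, *Scg2* and *Scg3* differed by 0.14, -0.15, 0.065 and -0.067 and did not pass. *Chga*, at 5.26 in the controls, lay above the 99th percentile of the nasal receptor genes, while the other three lay under the 95th.

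Downstream of the receptors, none of 25 measured genes of Gq and Gi signalling passed, with differences between -0.52 and 0.31 and a median of -0.025. The Gq family genes *Gnaq* and *Gna11* read 8.26 ± 0.16 and 8.27 ± 0.14 in controls and 8.52 ± 0.075 and 8.35 ± 0.13 in mutants (SD, n = 3 each). *Itpr2*, an IP3 receptor that releases stored calcium, read 8.83 to 8.98 in the controls and 8.33 to 8.41 in the mutants, and its difference of -0.52 ± 0.091 missed the threshold (limma adjusted p = 0.0522). *Rgs2*, encoding an inhibitor of Gq, differed by -0.46 ± 0.11 (limma adjusted p = 0.126). Among 22 related peptide receptors, none passed; those with the smallest p were the neurokinin receptor *Tacr3* (-0.50 ± 0.096, dim in both groups) and the ghrelin receptor relative *Gpr39* (-0.72 ± 0.19), with limma adjusted p = 0.0693 and 0.154.

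Among other peptide genes no decrease passed the test. Of 55 other neuropeptide and peptide hormone genes with a probe set of their own, 1 rose, none fell and 54 did not pass; their median difference was 0.062 and the lowest was -0.44. The gene that rose was *Edn1*, encoding the vasoconstrictor peptide endothelin 1, which read 6.33, 6.49 and 6.73 in the controls and 7.39, 7.52 and 7.42 in the mutants. The difference was 0.93 ± 0.12 (SE; limma adjusted p = 0.0189). Its call was lost without control 2, without any single mutant and in the females alone, while in those fits the difference stayed between 0.86 and 0.96. *Edn2*, encoding endothelin 2, read 4.94, 4.76 and 4.58 in the controls and 4.28, 4.27 and 4.40 in the mutants and did not pass (-0.44 ± 0.12, limma adjusted p = 0.157). The bombesin-like peptide genes *Nmb* (neuromedin B) and *Grp* read 3.92 and 3.35 in the controls, under the 95th percentile of the nasal receptor genes, with differences of -0.034 and -0.00090. Over all 6 pathway lists, 2 of 141 genes passed, or 1.42%, near the 1.04% of all genes.

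**Figure D2:**
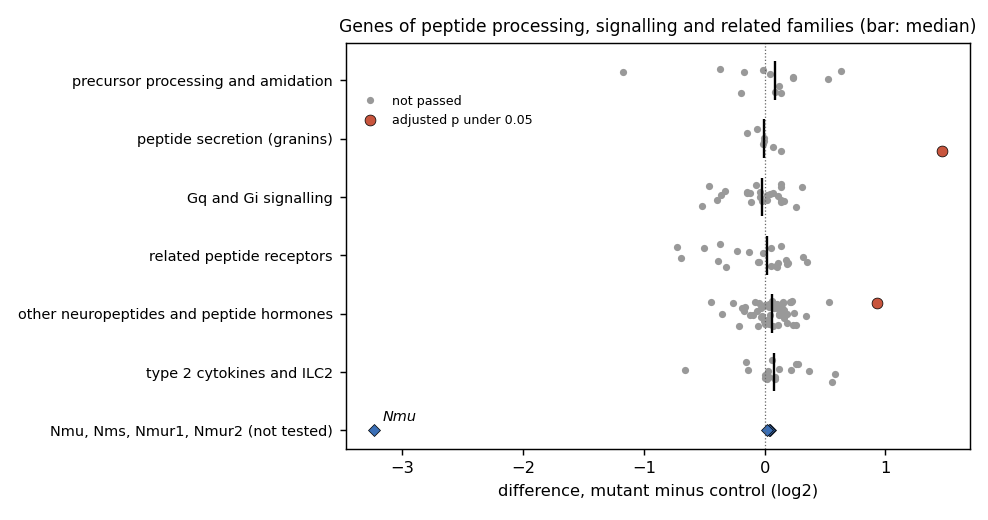
Difference between mutants and controls (log2) for each measured gene of the 6 pathway lists, with the list median as a bar and genes past the threshold in red; the blue diamonds are *Nmu*, *Nms*, *Nmur1* and *Nmur2*, which were not tested. The points past the threshold are *Cadps2* at 1.47 and *Edn1* at 0.93, and *Nmu* lies apart at -3.23.

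Of the cells that make or answer neuromedin U elsewhere, neuronal markers were in part at the background of the array. Of 23 measured genes of enteric and sensory neurons, 11 exceeded the 95th percentile of the nasal receptor genes and none passed the test (median 0.033). The mean of the list lay between 4.09 and 4.37 in the controls and between 4.10 and 4.29 in the mutants, overlapping ranges. Under that limit in the controls lay *Elavl4*, *Snap25* and *Chat*, for example, at 2.89, 3.48 and 3.66, and above it lay *Nefh*, *Slc18a3*, *Elavl3* and *Uchl1*, at 5.69, 5.14, 4.92 and 4.92. *Nos1*, the neuronal nitric oxide synthase gene, which skeletal muscle also expresses, was the exception in its spread, with 4.92, 8.12 and 6.48 in the controls and 6.06, 6.10 and 5.22 in the mutants. The marker with the smallest p, *Gap43*, a growth cone protein gene, differed by -0.58 ± 0.16 and did not pass (limma adjusted p = 0.182). Of 9 measured genes of glia and Schwann cells none passed either, with a median of 0.084, and those with the smallest p were *Fabp7* (0.20 ± 0.14) and *S100b* (0.14 ± 0.10).

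For the type 2 side of the pathway, none of 18 measured genes passed (median 0.074). The cytokine genes *Il5* and *Il13* read 3.15 and 4.37 in the controls and 3.15 and 4.21 in the mutants. *Klrg1*, a surface marker of these lymphoid cells, read 3.05 and 3.27. *Il5* and *Klrg1* lay under that limit in both groups, so their differences say little. The genes with the smallest p were bright and are not particular to lymphoid cells: *Rora*, encoding a nuclear receptor, differed by -0.66 ± 0.18, and *Arg1*, encoding arginase 1, by 0.58 ± 0.25 (limma adjusted p = 0.159 and 0.390). None of 14 genes of eosinophils and mast cells passed, with 5 higher and 9 lower in the mutants (median -0.030). Their array means were 3.62 to 3.68 in the controls and 3.51 to 3.58 in the mutants, and 4 of the 14 exceeded that limit. The protease genes *Mcpt4* and *Cpa3* had the smallest p, at -0.93 ± 0.18 and -0.46 ± 0.14.

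Fibroblast markers were lower in the mutants, as *Nmu* was. All 10 fibroblast genes were lower in the mutants (median -1.24), with array means of 8.28 to 9.08 in controls and 7.62 to 7.73 in mutants. Groups were separate for 8 of the 10, against 8% of all genes separate with the mutants lower. The 2 that passed, where 0.672% of all genes passed as lower, were *Col1a2* (-1.30 ± 0.19) and *Sparc* (-1.10 ± 0.17). Their limma adjusted p was 0.0273 and 0.0312. Both calls were lost without control 2, without control 3 and without any single mutant, with differences of -1.16 to -1.37 for *Col1a2* and -1.0 to -1.18 for *Sparc* in those fits. All 8 smooth muscle genes had lower means in the mutants (median -0.85), and none passed the threshold. Groups were separate for 5 of the 8, against 8% of all genes separate with the mutants lower. The 9 skeletal muscle genes overlapped between the genotypes and none passed (median -0.78). Their array means ran from 5.92 to 9.82 in the controls and from 5.99 to 8.51 in the mutants, with control 1 and mutant 3 low for *Acta1* as given above. *Nmu* read 10.30 in control 1 and 6.94 in mutant 3, and its difference was -3.38 without that control and -3.02 without that mutant. The part of these cells in the *Nmu* difference was not tested. Of 16 squamous genes, 11 were higher and 5 lower in the mutants, and none passed (median 0.076). Groups were separate for 6 of the 16, all 6 higher, against 18.1% of all genes separate in either direction. *Krt6a*, a keratin gene of stressed and proliferating epithelium, read 3.93, 6.54 and 5.68 in the controls and 10.09, 8.08 and 7.88 in the mutants, a difference of 3.30 ± 0.76 (limma adjusted p = 0.114). *Epcam*, an epithelial adhesion gene, differed by 0.63 ± 0.11 (limma adjusted p = 0.0547). None of 8 endothelial genes passed (median -0.074). Of 13 leukocyte genes, 7 were higher and 6 lower in the mutants (median 0.048). The 1 that passed, where 0.366% of all genes passed as higher, was *Cd68*, a lysosomal protein gene of macrophages. It rose by 1.11 ± 0.17 (limma adjusted p = 0.0304). Its call was lost without any single control, without mutant 2, without mutant 3 and in the females alone. In those fits the difference was 0.94 to 1.27. On the same list *Adgre1*, *Csf1r*, *Itgam* and *Itgax* differed by -0.20, -0.15, 0.048 and 0.34 and did not pass. *Ptprc*, the common leukocyte antigen gene, differed by 0.30 ± 0.22 and did not pass.

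The measured genes beside *Nmu* on chromosome 5 gave differences near 0. In the gene order of GRCm38.p6, the 3 measured genes on one side are *Clock*, *Gm7467* and *Pdcl2* and those on the other are *Exoc1*, *Cep135* and *Cracd*. *Exoc1*, encoding a subunit of the vesicle-tethering exocyst, read 6.92, 6.86 and 6.95 in controls and 6.98, 7.03 and 6.98 in mutants. *Clock*, the circadian transcription factor gene, read 8.54, 8.88 and 8.54 in controls and 8.45, 8.74 and 8.40 in mutants. The 6 differences lay between -0.12 and 0.18, and none passed the test. *Pdcl2* (2.59 in controls) and *Cep135* (3.93) lay under the 95th percentile of the nasal receptor genes in the controls, so their differences say little.

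**Figure D3:**
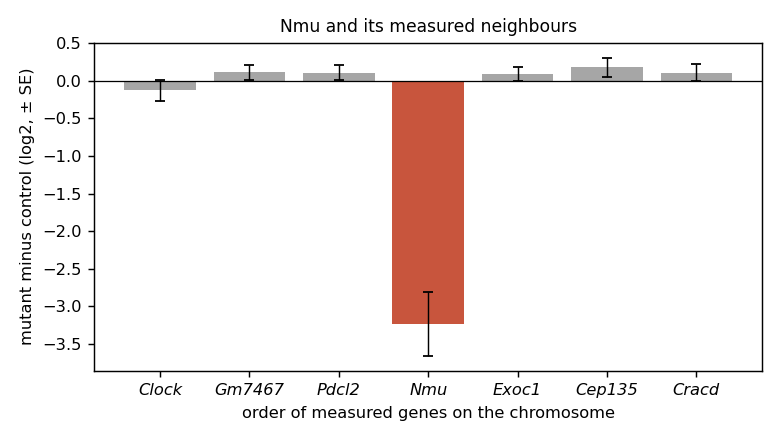
Difference between mutants and controls (log2, bars ± limma's moderated SE, n = 3 each) for *Nmu* and the 3 measured genes on each side of it in chromosomal order. The neighbours lie between -0.12 and 0.18, and *Nmu* at -3.23.

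The genes whose pattern over the 6 arrays was most like that of *Nmu* were found by Pearson's r among 1642 genes whose arrays spanned at least 1 on the log2 scale. They were chosen on this likeness, so their values are a description. The highest was *Il1f5*, encoding the antagonist of the IL-36 receptor (r = 0.989), which read 9.89, 9.81 and 9.76 in the controls and 6.47, 7.98 and 6.97 in the mutants. Next came *Arhgef17* (0.985), *Abi3bp*, a matrix protein gene (0.980), and *Il1f6*, encoding IL-36 alpha (0.980). *Slurp2*, a secreted Ly6 family gene (0.980), read 10.74, 10.65 and 10.49 in the controls and 7.16, 8.02 and 7.32 in the mutants. The list closed with *Itih5*, *Klk5* and *Serpina12* (each 0.979), which encode an inter-alpha-trypsin inhibitor chain, a kallikrein protease and the serpin vaspin.

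All 8 had mutants below controls without overlap, with differences between -0.99 for *Abi3bp* and -3.12 for *Slurp2*. Most of such an r comes from the step between the genotypes, which many genes share: 41 genes had an r of at least 0.95. In all 8, as in *Nmu*, mutant 2 was the highest of the 3 mutants. After each genotype's mean was subtracted, r with *Nmu* lay between 0.82 for *Serpina12* and 0.94 for *Itih5*, over the same 6 arrays. The genes had been picked on these arrays, so this r is no separate evidence of likeness. *Abi3bp*, *Il1f6* and *Itih5* shared the order of the controls with *Nmu*, and the others did not. Control 1, the lowest control for *Nmu*, was the highest for *Il1f5*, *Slurp2* and *Klk5*. *Klk5* came closest to the shape of *Nmu* in the mutants, with 4.18, 5.76 and 4.35, so that mutant 2 stood apart from mutants 1 and 3 there too. Mutants 1 and 3 lay under the 99th percentile of the nasal receptor genes (4.96) for *Klk5* and *Abi3bp*, and all 3 mutants did for *Serpina12*. Signals this close to the background are compressed, so the shape of these genes in the mutants says little. In controls 1, 2 and 3 *Klk5* read 7.55, 7.25 and 6.99, another order than that of *Nmu*.

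**Figure D4:**
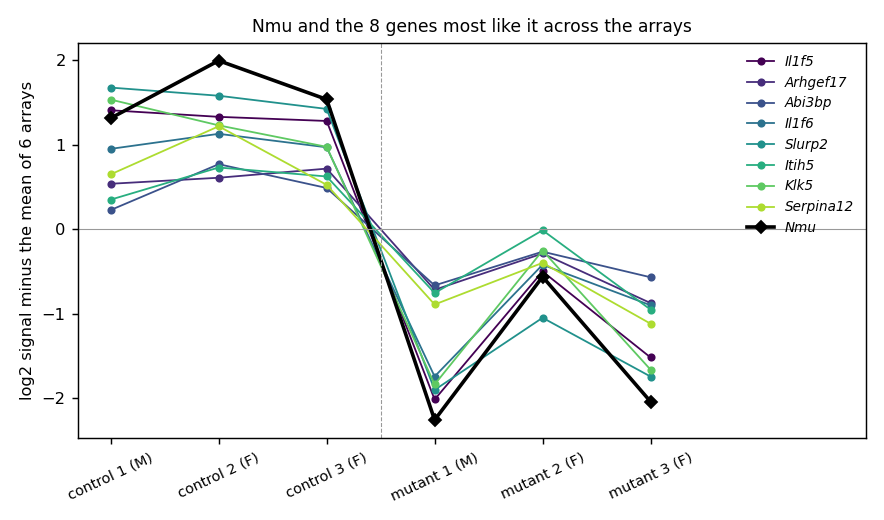
Log2 signal minus its mean over the 6 arrays, by array (M male, F female), for *Nmu* (black) and the 8 genes with the highest Pearson r to it; lines join the values of a gene and imply no order of animals. All 9 genes are high on the control arrays and low on the mutant arrays, with mutant 2 the highest of the mutants.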

How the data were processed

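Gene expression in esophageal epithelium of 3 mutant and 3 control mice was measured on 6 arrays. The authors deposited log2 values for 28853 probe sets; the log2 scale was read from the values, and the submitters' processing notes name Partek 6.4. How background was corrected and values normalized is not given in the sources used here. Precision is limited by the number of arrays.

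A single gene was named by 21789 probe sets, several genes by 1621, and 5443 were unnamed here. Symbols were updated through Entrez identifiers to GRCm38.p6 (21698 matched), and the probe set with the highest mean was taken for each of 19938 genes. The genotype effect was estimated with lmFit and eBayes of limma 3.58.1 under R 4.3.3 (no covariate, two-sided, 4 residual degrees of freedom, Benjamini-Hochberg over all genes, threshold 0.05). The p-values and SEs are moderated, with 7.58 degrees of freedom. The steps were tested on simulated data. Plots used Python 3.11.15 and matplotlib 3.10.9. An exact permutation test of 3 against 3 cannot go below p = 0.1 and was not used.

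The members and the 15 gene lists (251 of 267 entries measured) were chosen with earlier results of these data known. Genes named are the 4 members, *Klf4*, up to 6 passing members of a list or the 2 with the smallest p, 7 fixed genes (*Pcsk2* had no probe set of its own), the 8 most like *Nmu* and 3 neighbours on each side. Others (*Chga*, *Chgb*, *Scg2*, *Scg3*, *Edn2*, *Nmb*, *Grp*, *Elavl4*, *Snap25*, *Chat*, *Nefh*, *Slc18a3*, *Elavl3*, *Uchl1*, *Nos1*, *Acta1*, *Il5*, *Il13*, *Klrg1*, *Ptprc*, *Adgre1*, *Csf1r*, *Itgam*, *Itgax* and the keratins) were named for their role after values were seen.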

Additional observations from a re-analysis of the deposited data

Results flagged for a closer look

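*Nmur2* differed by 0.21 between the male mutant and the male control (1 animal each), and by -0.079 between the means of the females (2 of each). Female control 2 and female mutant 2 both read 3.45. The opposite directions were not tested, and both lie at the background of the array.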

How the results depend on the processing

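The alternatives were quantile normalization, median centring, a filter on dim probe sets, averaged probe sets, a block for the replicate number, a covariate for sex, array weights, a variance trend, the females alone and each array left out. The differences of the 4 genes moved by less than the spread between replicates in all of these that gave a value (the variance trend leaves differences as they are). Without 1 array they ranged from -3.76 to -2.92 for *Nmu*, -0.021 to 0.086 for *Nms*, -0.043 to 0.094 for *Nmur1* and -0.068 to 0.085 for *Nmur2*. The genes called, 207 with all arrays, were 81 with the replicate number as a block, 370 with array weights, 83 in the females and 44 to 193 without 1 array. The genes called on the pathway lists, 2 with all arrays, were 1 with the replicate block, 5 with array weights, 1 in the females and 1 to 2 without 1 array; the cause was not tested. No label says whether the replicate numbers pair littermates. The deviations of same-numbered arrays correlated at -0.17, 0.090 and -0.10 across genes, which cannot exclude a pairing. With the block, the *Nmu* difference stayed at -3.23, with an SE of 0.22 in place of 0.42. *Edn1*, *Sparc* and *Cd68* were not called with the block. Above the 95th percentile of the nasal receptor genes lay 3 of the 4 genes, and above the 99th lay 1. The dim filter kept 11963 genes above 4.72 and removed *Nms*, *Nmur1* and *Nmur2*.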
